A study of Danio rerio with 36 samples.

Results

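Control zebrafish (Danio rerio) embryos were compared between 2 stages, 21-somites, collected at about 24 hours post fertilization (hpf), and Prim-5, collected at about 30 hpf. The samples were chosen by their labels as the 3 Prim-5 control arrays and the 3 21-somites control arrays, which are 6 of the 36 arrays of the series. All 15502 probe sets were used after the manufacturer's control probe sets had been set aside, and they covered 8793 genes by symbol. Every result was also computed without 21-somites control replicate 1, an array low in transcripts of the yolk.

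All groups, controls included, carried the genotype Tg(fli1a:EGFP)y1, a transgene in which the promoter of fli1a drives enhanced green fluorescent protein (EGFP) in blood vessel cells. From about 3 hpf the embryos were kept at 25 °C in sealed glass vials, in embryo media alone for the controls. The other groups of the series were held in 0.00625, 0.625 or 5 mM MTBE (methyl tert-butyl ether), which is added to petrol. Each sample was the total RNA of 15 whole embryos pooled, amplified and hybridised to a one-colour Affymetrix array, with 3 arrays a group. The 9 Prim-5 and 9 21-somites arrays of the MTBE groups share no array with the controls and served as a second measurement of the same stage step, although under exposure. The labels call the pools of a group biological replicates, but no source used here says that they came from separate clutches. The p-values here therefore reflect the spread among pools within the groups, which may be technical.

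In this interval the tailbud of the zebrafish embryo forms its last somites. T-box and Cdx transcription factors act in the tailbud and its presomitic mesoderm, and oscillating Her repressors time each somite. In the somites already formed, fast muscle fibres assemble sarcomeres, in which troponin and tropomyosin on the actin filament gate the pull of myosin, and parvalbumin binds the calcium released at each twitch. Axons extend, circulation starts and pigment cells of the neural crest begin to differentiate.

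Values are the log2 levels that the authors deposited. A change is the Prim-5 mean minus the 21-somites mean on the log2 scale, given ± its standard error (SE, n = 3 arrays a group). The SE uses limma's moderated spread, pooled over all 12 groups of stage and dose, and not the spread of the 6 control arrays alone. For genes that deviate on 21-somites control replicate 1, the SE can be smaller than the scatter of the control levels printed beside it. A gene rose or fell where limma's two-sided moderated test gave a Benjamini-Hochberg adjusted p under 0.05 over all 15502 probe sets, and "without the yolk-poor array" means without 21-somites control replicate 1, with 2 arrays left at that stage. Of 238 named genes that passed, 153 also passed with each of the 6 arrays left out in turn, and any gene below that did not is given with its value.

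Arrays of a group correlated at 0.984 to 0.994 at 21-somites and 0.992 to 0.995 at Prim-5. The mean level of 40 yolk and lipid transport genes was 4.83 on 21-somites control replicate 1, against 6.17 and 6.17 on the other 2 arrays of its stage, 6.27, 6.38 and 6.26 on the Prim-5 controls and 5.82 to 6.23 on the 9 MTBE arrays of 21-somites. On that array 171 probe sets lay more than 1 log2 unit below both other 21-somites controls, 22 of the 40 yolk list genes among them, and 17 lay that far above both. Part of the table is close to background. Probe sets for the red fluorescent proteins AsRed2 and DsRed, which these embryos are not described as carrying, averaged 2.98 and 2.18, and the EGFP probe set averaged 2.80 and 2.67 at the 2 stages, above the DsRed level and below the AsRed2 level. In 136 of the 430 genes that rose, the 21-somites mean was at or under 2.98, and the true fold of such genes is not known.

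Between the stages 1091 probe sets changed, which is 7.04% of those tested. Of these 672 were higher at Prim-5 (4.33%) and 419 were lower (2.7%), with 184 rises and 18 falls over 2-fold. Counted as genes, with the brightest probe set of each, 430 rose (4.89%) and 257 fell (2.92%), and these 2 shares are the background for each gene list below. Over all genes the median log2 change was -0.03. The balance moved with 1 of the scalings run, since cyclic loess gave 823 higher and 275 lower while quantile normalization gave 691 and 437. A filter on level moved it too, and a fit restricted to the brighter 7751 probe sets gave 382 and 400.

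Without the yolk-poor array 805 probe sets changed (5.19%), and 670 of the 1091 were among them in the same direction. Genes then rose in 3.54% and fell in 2.15% of those tested. All 20 largest rises and all 20 largest falls among named genes still passed. These genes had been picked as the largest passing changes with all control arrays, most of which this fit shares, so their passing is not independent support.

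**Figure D1:**
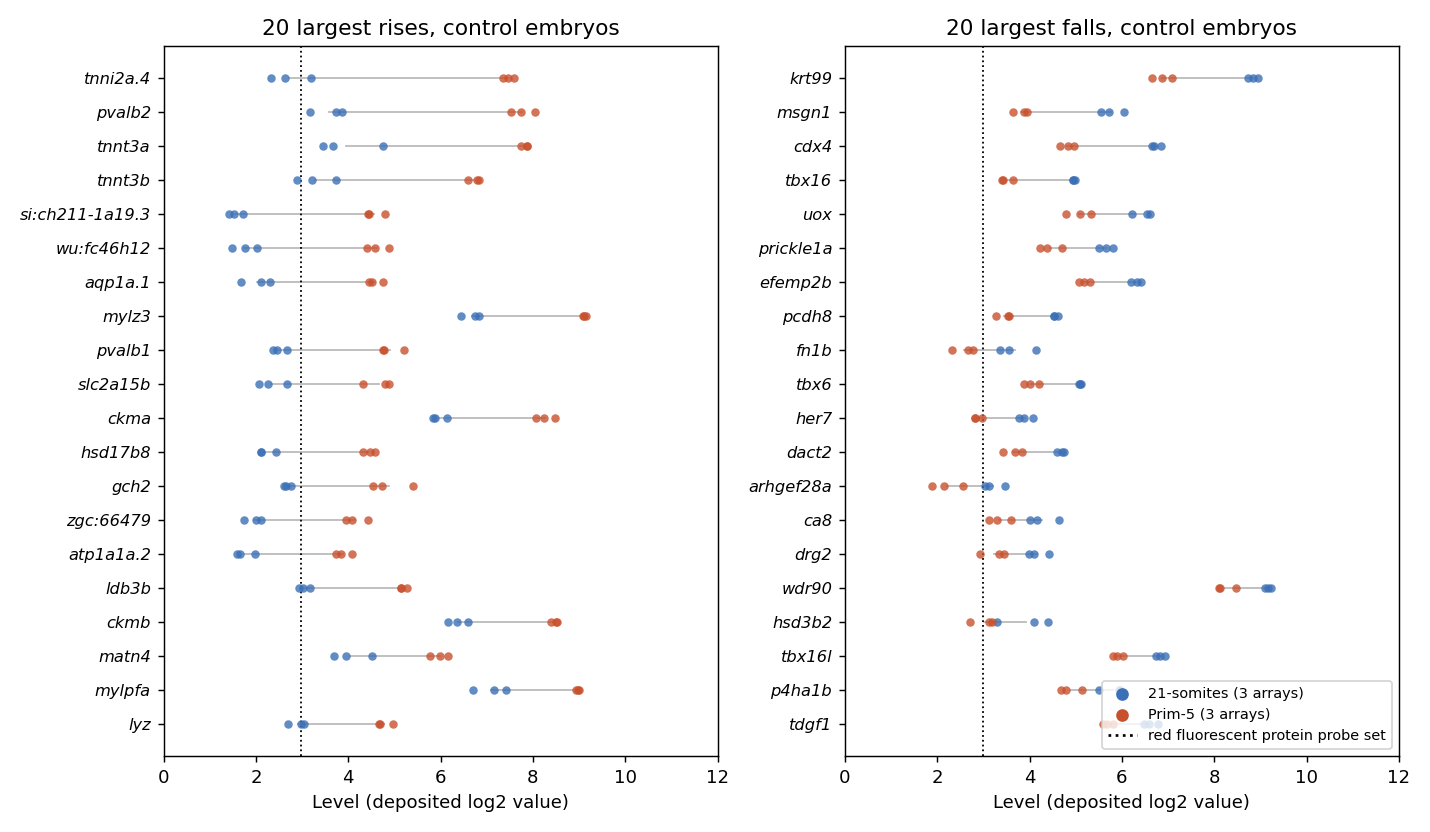
Log2 levels on the 6 control arrays for the 20 genes with the largest rise (left) and the 20 with the largest fall (right), one point per array, blue for 21-somites and orange for Prim-5, with a grey line between the group means and a dotted line at the AsRed2 probe set (2.98). Points of the 2 stages do not overlap in any row, which the choice of genes required, and 11 of the 20 rises start from a 21-somites mean at or under the dotted line.

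Genes of the muscle lists made up 9 of the 20 largest rises, with the creatine kinases ckma and ckmb of the energy supply list among them. By list, 10 of 16 fast thin filament genes, 6 of 9 fast thick filament and sarcomere assembly genes and 8 of 12 muscle calcium handling genes rose, and 0 members of these 3 lists fell. The list medians were 0.83, 0.68 and 0.85. Fast troponin I, tnni2a.4, which blocks the actin filament at rest, had levels of 3.18, 2.32 and 2.62 at 21-somites and 7.46, 7.35 and 7.59 at Prim-5. That is a change of 4.76 ± 0.15, or 27.0-fold (adjusted p = 1.73e-23), from a 21-somites mean below the AsRed2 level, and a second probe set of the gene gave 4.91.

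The fast troponin T genes, which tie the troponin complex to tropomyosin, came up together. For tnnt3a the levels were 4.76, 3.46 and 3.66 at 21-somites and 7.88, 7.88 and 7.74 at Prim-5, a rise of 3.87 ± 0.20. For tnnt3b they were 3.74, 3.21 and 2.88, then 6.82, 6.60 and 6.78, a rise of 3.46 ± 0.17. The stages were far apart for both genes, although the rule that picked the largest rises required stages without overlap. In both genes the yolk-poor array had the highest 21-somites value. Fast troponin C, tnnc2.2, which carries the calcium switch, was already at 8.23, 8.11 and 8.44 and rose by 1.30 ± 0.14. The skeletal actin gene actc1b rose by 1.35 ± 0.12 to 10.39, 10.33 and 10.51. A second probe set of actc1b gave 1.32, and 2 dim ones gave -0.56 and -0.10 and did not pass. Tropomyosin tpma rose by 1.22 ± 0.16 and nebulin, neb, the ruler of the thin filament, by 1.17 ± 0.17. The pointed-end cap gene tmod4 had levels of 2.64, 3.98 and 4.03 against 4.75, 4.59 and 4.67, and its change of 1.12 ± 0.24 was 0.66 without the yolk-poor array, where it did not pass (adjusted p = 0.0574).

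Among the thick filament genes, the fast light chain mylz3 rose from 6.83, 6.44 and 6.75 to 9.08, 9.10 and 9.15, by 2.44 ± 0.16. The regulatory light chain mylpfa rose by 1.87 ± 0.16 and the fast heavy chain myhz1.3 by 1.61 ± 0.17, to 10.69, 10.64 and 10.43. In the 6-somites controls the means of mylz3, mylpfa and myhz1.3 had been 3.51, 2.48 and 2.45. The light chain myl1 rose by 1.08 ± 0.15 and the myosin binding protein gene mybpc2b by 0.68 ± 0.13. For the troponins tnni2a.4 and tnnt3b the means were 2.38 and 3.59 at 6-somites and 2.71 and 3.28 at 21-somites.

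Calcium handling genes rose in the same embryos. Parvalbumin pvalb2 was at 3.74, 3.17 and 3.86 at 21-somites and at 7.53, 7.73 and 8.05 at Prim-5, a rise of 4.18 ± 0.20 or 18.1-fold (adjusted p = 5.55e-18). Its paralogs pvalb1, pvalb4 and pvalb3 rose by 2.41 ± 0.19, 0.95 ± 0.18 and 0.79 ± 0.17, with the pvalb3 means below the AsRed2 level at both stages. The calcium pump atp2a1, which refills the sarcoplasmic reticulum, rose by 1.54 ± 0.15 from 7.83, 7.55 and 7.78 to 9.34, 9.24 and 9.21. The reticulum cation channel gene tmem38a rose by 1.50 ± 0.16, the calcium store gene casq2 by 0.72 ± 0.15 and the calcium channel subunit gene cacng1a by 0.92 ± 0.19. Of 5 neuromuscular junction genes 3 rose, or 2 without the yolk-poor array, and only 1 of the 5 was above the AsRed2 level at either stage. The acetylcholine receptor subunit genes chrna1 and chrne rose by 0.70 ± 0.16 and 0.89 ± 0.17, with chrne under the AsRed2 level throughout. Acetylcholinesterase, ache, had overlapping stages with 1.53, 1.89 and 2.10 against 2.68, 2.08 and 2.16. Its change of 0.46 was 0.31 without the yolk-poor array, 0.49 without 21-somites control replicate 2 and 0.28 without Prim-5 control replicate 1, and it passed in none of the 3.

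Of 5 slow muscle genes 1 rose and 0 fell, against 4.89% and 2.92% of all genes, with a median of 0.17, and 4 of the 5 were above the AsRed2 level. The slow myosin heavy chain smyhc1 lay at 10.03, 10.11 and 9.95 at 21-somites and at 10.23, 10.26 and 10.12 at Prim-5, a difference of 0.17 ± 0.15 that did not pass. The light chain myl13 rose by 0.66 ± 0.16.

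The energy supply of muscle rose with its filaments, in 11 of 20 genes with a list median of 0.69, and none fell. The muscle creatine kinases, which buffer ATP, gave the largest changes. ckma had levels of 5.87, 5.84 and 6.14 at 21-somites and 8.07, 8.23 and 8.47 at Prim-5, and rose by 2.31 ± 0.17. ckmb rose by 2.10 ± 0.19 and adenylate kinase ak1 by 1.79 ± 0.15. The glycolytic enzyme genes aldoab, pgam2 and eno3 rose by 1.47 ± 0.15, 1.42 ± 0.15 and 1.38 ± 0.16. Muscle glycogen phosphorylase, pygmb, with 3.24, 4.77 and 4.64 against 5.82, 5.96 and 6.14, rose by 1.76 ± 0.22 with all arrays and by 1.27 without the yolk-poor one. Triose phosphate isomerase, tpi1b, was also lowest on the yolk-poor array, at 4.36 against 5.92 and 5.77, with 6.31, 6.75 and 6.68 at Prim-5. Its rise of 1.23 ± 0.22 was 0.74 without that array, and in a fit of only the 6 control arrays it did not pass (adjusted p = 0.0774).

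Among 13 regulators of muscle differentiation 4 fell and 1 rose, with a list median of -0.18. In the MTBE arrays 4 fell and 5 rose, against 16.1% and 12.6% of all genes there. Without the yolk-poor array 4 fell and 2 rose in controls (median -0.08). Without Prim-5 control replicate 3 the count lower was 2. The determination factor myod1 had levels of 4.34, 3.85 and 4.13 at 21-somites and 3.77, 3.21 and 3.24 at Prim-5, and fell by 0.70 on the log2 scale (SE 0.13), although not in a fit of only the 6 control arrays (adjusted p = 0.0583). myf5, dim throughout, changed by -0.69 ± 0.14. Myogenin, myog, which drives fusion and terminal differentiation, changed by -0.64 ± 0.17 from 6.33, 6.37 and 6.34 to 5.70, 5.85 and 5.58, and the somite factor tcf15 by -0.59 ± 0.15. Without Prim-5 control replicate 3 these last 2 changes were -0.57 and -0.49 and did not pass. The cofactor mef2ca rose by 0.47 ± 0.12, but did not pass without 21-somites control replicate 2 (0.39), Prim-5 control replicate 1 (0.44) or Prim-5 control replicate 2 (0.44).

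Tailbud and presomitic mesoderm genes fell. Of 25 genes 11 fell and 0 rose, with a median of -0.39, and the counts were the same without the yolk-poor array. The posterior homeobox gene cdx4 had levels of 6.84, 6.70 and 6.65 at 21-somites and 4.83, 4.66 and 4.97 at Prim-5, a change of -1.91 ± 0.11 (adjusted p = 1.48e-15). msgn1, which commits progenitors to paraxial mesoderm, went from 6.04, 5.72 and 5.54 to 3.94, 3.87 and 3.65, a change of -1.95 ± 0.19. No array of one stage reached the range of the other for either gene. The rule that picked the largest falls required this, so it is not further evidence of a fall. Both genes had been brighter still in the 6-somites controls, at 8.20 for cdx4 and 7.21 for msgn1.

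The T-box genes of the presomitic mesoderm fell together. tbx16 was at 4.98, 4.94 and 4.93 and then at 3.43, 3.40 and 3.63, a change of -1.46 ± 0.15, while a second, dim probe set gave -0.23 and did not pass. tbx6 changed by -1.07 ± 0.14 and tbx16l by -0.93 ± 0.16. The clock repressor her7 went from 4.07, 3.78 and 3.87 to 2.96, 2.83 and 2.82, a change of -1.04 ± 0.16. The notochord progenitor gene noto changed by -0.81 ± 0.14, and sp5l, a target of Wnt signalling in the tailbud, by -0.84 ± 0.15. Of the ligands made in the tailbud, wnt5b changed by -0.63 ± 0.14 and fgf8a by -0.62 ± 0.15, and once 50 was added to every linear value fgf8a and her7 did not pass (adjusted p = 0.169 and 0.0644). Further genes of the 20 largest falls, outside the tailbud list, have known roles in paraxial or tail mesoderm. These were the protocadherin pcdh8 at -1.10 ± 0.15, fibronectin fn1b at -1.09 ± 0.16, the Wnt modulator dact2 at -1.03 ± 0.13 and the planar polarity gene prickle1a at -1.21 ± 0.15. The Nodal coreceptor tdgf1 changed by -0.91 ± 0.14. These genes outside the list were picked by their fall, and how many of all genes have such roles was not counted.

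Hox genes, which set position along the body axis, fell more often than they rose. Of 42 genes 15 fell and 1 rose, with a median of -0.32. By paralog group the count of falls was 3 of 13 in groups 1 to 4, 4 of 12 in groups 5 to 8 and 8 of 17 in groups 9 to 13, with medians of -0.27, -0.36 and -0.38. Without the yolk-poor array the falls were 2, 3 and 4 in these groups. No test between the groups was made. hoxa9a went from 4.74, 4.43 and 4.44 to 3.71, 4.07 and 3.65, a change of -0.72 ± 0.14. hoxd9a changed by -0.63 ± 0.14, hoxd10a by -0.61 ± 0.13 and hoxd4a by -0.70 ± 0.12. Dimmer second probe sets of hoxa9a and hoxd4a gave -0.30 and -0.15 and did not pass. hoxb7a changed by -0.71 ± 0.15 and was the one of these that did not pass once 50 was added (adjusted p = 0.0653). The exception was hoxb8a, at 5.20, 5.26 and 5.56 and then 5.97, 6.20 and 6.18, which rose by 0.77 ± 0.14. The other probe sets of hoxb8a gave 0.40 and 0.01 and did not pass. Without the yolk-poor array 9 Hox genes fell and 1 rose, and without Prim-5 control replicate 3 the count of falls was 8.

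**Figure D2:**
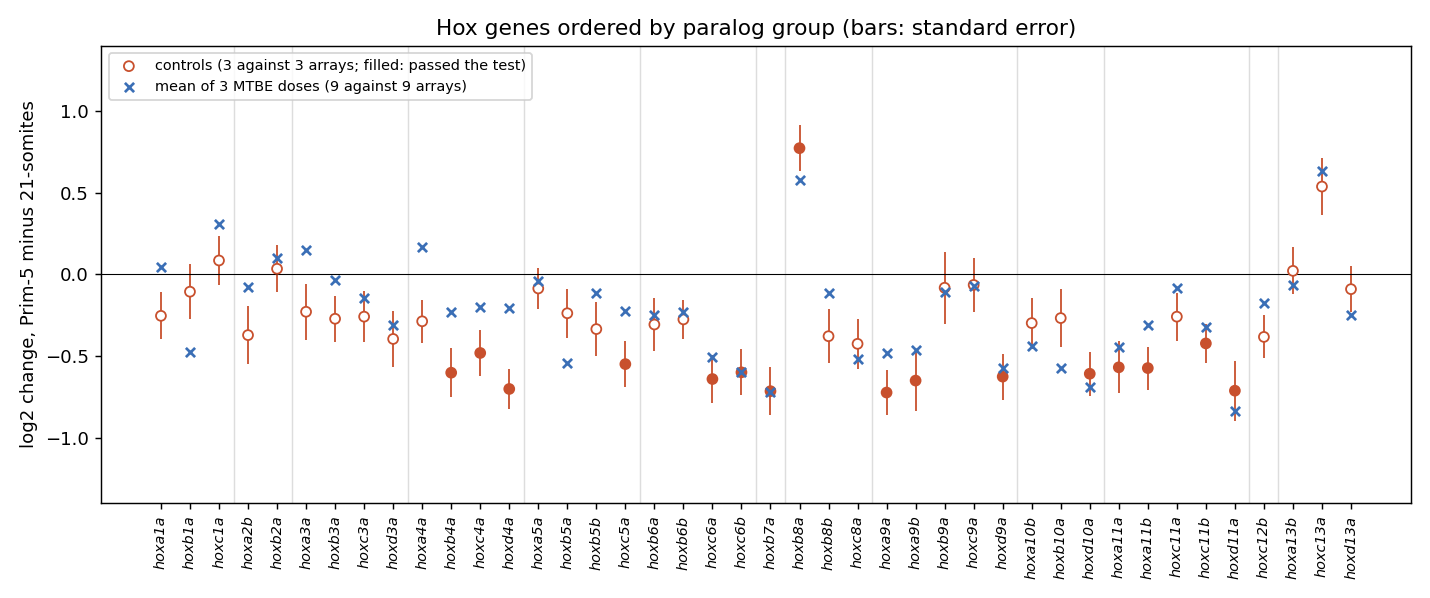
Log2 change from 21-somites to Prim-5 of 42 Hox genes ordered by paralog group, with circles and SE bars for the controls (filled where the test was passed) and crosses for the mean of the 3 MTBE doses. Filled circles below the line are 15 and above it 1 (hoxb8a), and 23 of the crosses below the line and 3 above it passed in the MTBE arrays.

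Genes of axon growth and of synaptic transmission rose. Of 32 genes for axon growth and the neuronal cytoskeleton 13 rose and 0 fell (median 0.41), and of 30 synapse and transmitter genes 9 rose and 0 fell (median 0.18). Both counts of rises were the same without the yolk-poor array, while that of the axon list was 8 without 21-somites control replicate 2 or Prim-5 control replicate 1. Above the AsRed2 level at either stage were 25 of the 32 axon genes but only 11 of the 30 synapse genes. The axon extension gene islr2 rose from 2.71, 2.90 and 3.22 to 4.70, 4.24 and 4.30, by 1.47 ± 0.17. The growth cone gene gap43 rose from 5.57, 5.95 and 6.05 to 6.97, 7.10 and 6.88, by 1.13 ± 0.14. The stages did not overlap for either gene. That held for 1048 of the 1091 changed probe sets, so it does not set these genes apart. The share over all probe sets is not given here. gng3, a G protein subunit of neurons, rose by 1.15 ± 0.17, the tubulin regulator stmn1b by 1.13 ± 0.17 and dpysl3, which acts in growth cone collapse, by 0.63 ± 0.13. rtn1b rose by 0.90 ± 0.20, but by 0.59 without Prim-5 control replicate 1, where it did not pass (adjusted p = 0.061).

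Of the synapse list, gad1b, which makes GABA, rose from 2.34, 2.19 and 2.34 to 3.42, 3.40 and 3.49, by 1.14 ± 0.15. slc32a1, which loads GABA and glycine into vesicles, rose by 0.95 ± 0.12 but stayed below the AsRed2 level, at 2.58, 2.65 and 2.70. Other rises of the synapse list were cplx2a and syt4, which act in vesicle fusion, at 1.20 ± 0.16 and 0.87 ± 0.17, the disassembly ATPase gene nsfa at 0.95 ± 0.14 and the membrane partner snap25a at 0.69 ± 0.15. A second, dim probe set of nsfa gave 0.11 and did not pass. In contrast the pan-neuronal RNA binding gene elavl3 was at 8.60, 8.41 and 8.43 and then 8.29, 8.68 and 8.50, a difference of 0.01 ± 0.14. Among 34 neurogenic transcription factors 6 rose and 0 fell. tbr1b, a forebrain factor, rose by 1.03 ± 0.19 and the proneural gene ascl1b by 0.79 ± 0.17, whereas 3 of the 34 rose without the yolk-poor array, without 21-somites control replicate 2 or without Prim-5 control replicate 2.

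Of 26 genes of neural progenitors and radial glia 4 rose and 2 fell (median -0.03). The lipid binding gene fabp7a rose from 5.48, 5.81 and 5.91 to 6.88, 7.18 and 7.30, by 1.38 ± 0.17. The gap junction gene gja1b rose by 1.37 ± 0.18, the brain creatine kinase ckbb by 1.04 ± 0.16 and the glutamate transporter slc1a2b by 1.15 ± 0.23. The 2 that fell, cdh2 and sox19a, changed by -0.61 and -0.38 and did not pass without the yolk-poor array (-0.57 and -0.33). They also did not pass without Prim-5 control replicate 1 (-0.56 and -0.35) or replicate 3 (-0.61 and -0.34), and sox19a did not without 21-somites control replicate 3 (-0.37). A second, bright probe set of cdh2 gave -0.08 and did not pass. The hindbrain and neural crest factor egr2b fell from 2.72, 2.18 and 2.59 to 1.54, 1.50 and 1.65, under the AsRed2 level at both stages, a change of -0.94 ± 0.16.

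Of 11 lens genes 2 rose. The crystallin crybb1 was at 2.21, 2.34 and 2.56 and then 3.61, 3.49 and 3.82, a rise of 1.27 ± 0.15, and cryba4 rose by 0.91 ± 0.14. These were the only 2 of the 11 above the AsRed2 level at either stage. Among 29 retina and eye field genes 1 rose and 1 fell. The fall was pax2a, of the optic stalk, midbrain boundary, ear and kidney, with 5.61, 5.63 and 5.60 against 4.95, 4.85 and 5.19, a change of -0.62 ± 0.14. A second probe set of pax2a gave -0.24 and did not pass.

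Pigment genes of the neural crest list rose in 7 of 26 and fell in 2, with a median of 0.09, and without the yolk-poor array 5 rose and 1 fell. gch2, which supplies the pteridine pathway of yellow pigment cells, rose from 2.61, 2.76 and 2.66 to 5.41, 4.73 and 4.52, by 2.21 ± 0.15 (adjusted p = 2.01e-13) from a mean below the AsRed2 level, and a second probe set gave 2.34. The melanin enzyme dct rose from 2.41, 2.62 and 2.78 to 4.12, 3.98 and 4.41, by 1.57 ± 0.14. pmelb, a melanosome fibre gene, rose by 0.82 ± 0.15 and mitfa, the master regulator of melanophores, by 0.72 ± 0.17. The sugar transporter genes slc2a15b and slc2a11b, known from medaka to act in yellow and white pigment cells, rose by 2.33 ± 0.19 and 0.71 ± 0.17, and a second probe set of slc2a15b gave 0.66. The pterin gene pcbd1 was 0.93 ± 0.23 higher with all arrays. Its values of 4.76, 6.29 and 5.89 against 6.42, 6.57 and 6.76 place the yolk-poor array lowest, and the change was 0.49 without it and 0.85 without Prim-5 control replicate 3, passing in neither.

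Blood genes rose in the erythroid lineage, with 8 of 33 red cell and heme genes higher and 1 lower (median 0.13). aqp1a.1, a water channel of red cells, rose from 2.30, 1.67 and 2.11 to 4.52, 4.45 and 4.75, by 2.55 ± 0.16. The anion exchanger slc4a1a rose by 1.79 ± 0.17. The embryonic globins hbae3, hbbe3 and hbbe2 rose by 1.54 ± 0.18, 1.17 ± 0.17 and 0.90 ± 0.19, and hbae3 had levels of 7.73, 7.77 and 7.91 against 9.41, 9.31 and 9.32. Biliverdin reductase blvrb was lowest on the yolk-poor array, at 2.20 against 3.24 and 3.51, and rose by 1.52 ± 0.20 with it and 1.13 without it. The early blood and hatching gland factor klf17 changed by -0.67 ± 0.14. Fewer cells of a type and less RNA per cell cannot be told apart in whole-embryo RNA, here as in every tissue above and below.

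The leukocyte list had 2 of 32 genes higher and 1 lower, a share of rises close to the background. lyz, the lysozyme of neutrophils and macrophages, rose from 3.03, 2.98 and 2.69 to 4.68, 4.67 and 4.97, by 1.87 ± 0.19. The myeloid markers mpx, spi1b and coro1a gave -0.24 ± 0.18, -0.02 ± 0.15 and 0.10 ± 0.17 and did not pass. In the blood vessel list 1 of 30 genes rose (3.33%) and 2 fell (6.67%), against 4.89% and 2.92% of all genes. In the MTBE mean 9 of the 30 rose and 8 fell, against 12.6% and 16.1% of all genes there. The one rise in controls was crip2, a LIM protein of vessels and heart, with 6.24, 6.35 and 6.23 against 7.13, 7.20 and 6.85, by 0.79 ± 0.14. The endothelial receptor genes kdrl and tie1 were 0.41 ± 0.17 and 0.45 ± 0.15 higher and did not pass, and kdrl was below the AsRed2 level at both stages.

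Of 22 heart muscle genes 7 rose and 1 fell (median 0.11). The cardiac myosin binding protein gene mybpc3 rose from 2.19, 1.91 and 1.87 to 3.94, 3.59 and 3.91, by 1.82 ± 0.16. The cardiac myosin light chains myl7 and cmlc1 were lowest on the yolk-poor array. myl7 was at 4.14, 5.33 and 5.35 and then 6.44, 6.37 and 6.37, and rose by 1.45 ± 0.19, or 1.05 without that array. cmlc1 was at 5.68, 6.47 and 6.45 and then 7.57, 7.52 and 7.49, and rose by 1.33 ± 0.16, or 1.07 without it. The ventricular heavy chain myh7 rose by 0.86 ± 0.16. has2, which makes the hyaluronan of the early valve cushions, changed by -0.60 ± 0.14 under the AsRed2 level.

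Genes of the ion-transporting skin cells (ionocytes) rose in the whole-embryo RNA, while keratins went both ways. The tissue in which these genes changed was not measured. Of 10 ionocyte genes 6 rose and 0 fell, with a median of 0.78. The sodium pump subunits atp1a1a.2 and atp1a1a.3 rose by 2.14 ± 0.15 and 1.63 ± 0.18, and atp1a1a.2 was at 1.66, 1.60 and 1.99 at 21-somites and 3.85, 4.08 and 3.74 at Prim-5. The pump's beta subunit atp1b1b rose by 0.87 ± 0.15, the anion exchanger slc4a2a by 0.72 ± 0.15 and carbonic anhydrase ca2 by 0.91 ± 0.15. A second probe set of ca2 gave -0.05 and a second one of slc4a2a -0.19, neither passing. atp1a1a.4 overlapped between stages and was 0.50 higher without the yolk-poor array, where it did not pass, against 0.84 with it.

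Of 45 keratin and epidermis genes 6 rose and 6 fell, and 3 fell without Prim-5 control replicate 2 or 3. krt99 was the largest fall of the whole comparison among named genes, from 8.74, 8.95 and 8.84 to 6.64, 7.09 and 6.86, a change of -1.98 ± 0.14 (adjusted p = 6.66e-13). The simple-epithelium keratin krt18a.1 changed by -0.69 ± 0.11 and the desmosome gene dspa by -0.64 ± 0.13, while a second probe set of dspa gave -0.21 and did not pass. The epidermal keratins krt4 and krt5 gave 0.03 ± 0.10 and -0.26 ± 0.12 at levels above 8 and did not pass. Against these, agr2, a secretory cell gene of the skin and hatching gland, rose by 1.11 ± 0.17 and the calcium binding icn by 1.13 ± 0.23. Among 4 hatching gland genes 2 rose and 1 fell, and the second rise, cd63 at 0.56, was 0.31 without the yolk-poor array and 0.49 without Prim-5 control replicate 1 and passed in neither.

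Connective tissue matrix genes rose in 8 of 30 and fell in 2. The type I collagen genes col1a2 and col1a1a were among the rises. col1a2 was at 5.79, 6.25 and 6.43 and then 7.31, 7.61 and 7.64, a rise of 1.37 ± 0.15, and col1a1a rose by 1.11 ± 0.16. Decorin, dcn, rose by 1.02 ± 0.16, tenascin tncb by 0.92 ± 0.16 and the limb and fin mesenchyme factor prrx1b by 1.03 ± 0.21. The 2 falls were the fibronectins, fn1b as given and fn1a at -0.64 ± 0.15, and 2 dimmer probe sets of fn1a gave -0.41 and -0.36 and did not pass. Across 21 collagen genes of any tissue 8 rose and 0 fell, and 4 rose without the yolk-poor array. Without Prim-5 control replicate 1, 2 or 3 the count was 3, 4 and 5, and without 21-somites control replicate 3 it was 5.

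The notochord and cartilage list had 6 of 26 genes higher and 3 lower. The count higher was 3 without the yolk-poor array, Prim-5 control replicate 1 or Prim-5 control replicate 2, and the count lower was 1 without Prim-5 control replicate 1 or 3. The matrix gene matn4 rose from 4.50, 3.68 and 3.95 to 5.78, 6.17 and 5.98, by 1.93 ± 0.21. The caveola gene cavin1b rose by 1.28 ± 0.16 and col11a2 by 0.94 ± 0.16, while the sheath collagen col2a1a was at 8.37, 8.32 and 8.31 and then 8.66, 8.55 and 8.34 and did not pass. The laminin gene lamc1 changed by -0.52 ± 0.13 with all arrays and did not pass without Prim-5 control replicate 1 (-0.46) or 3 (-0.45).

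**Figure D3:**
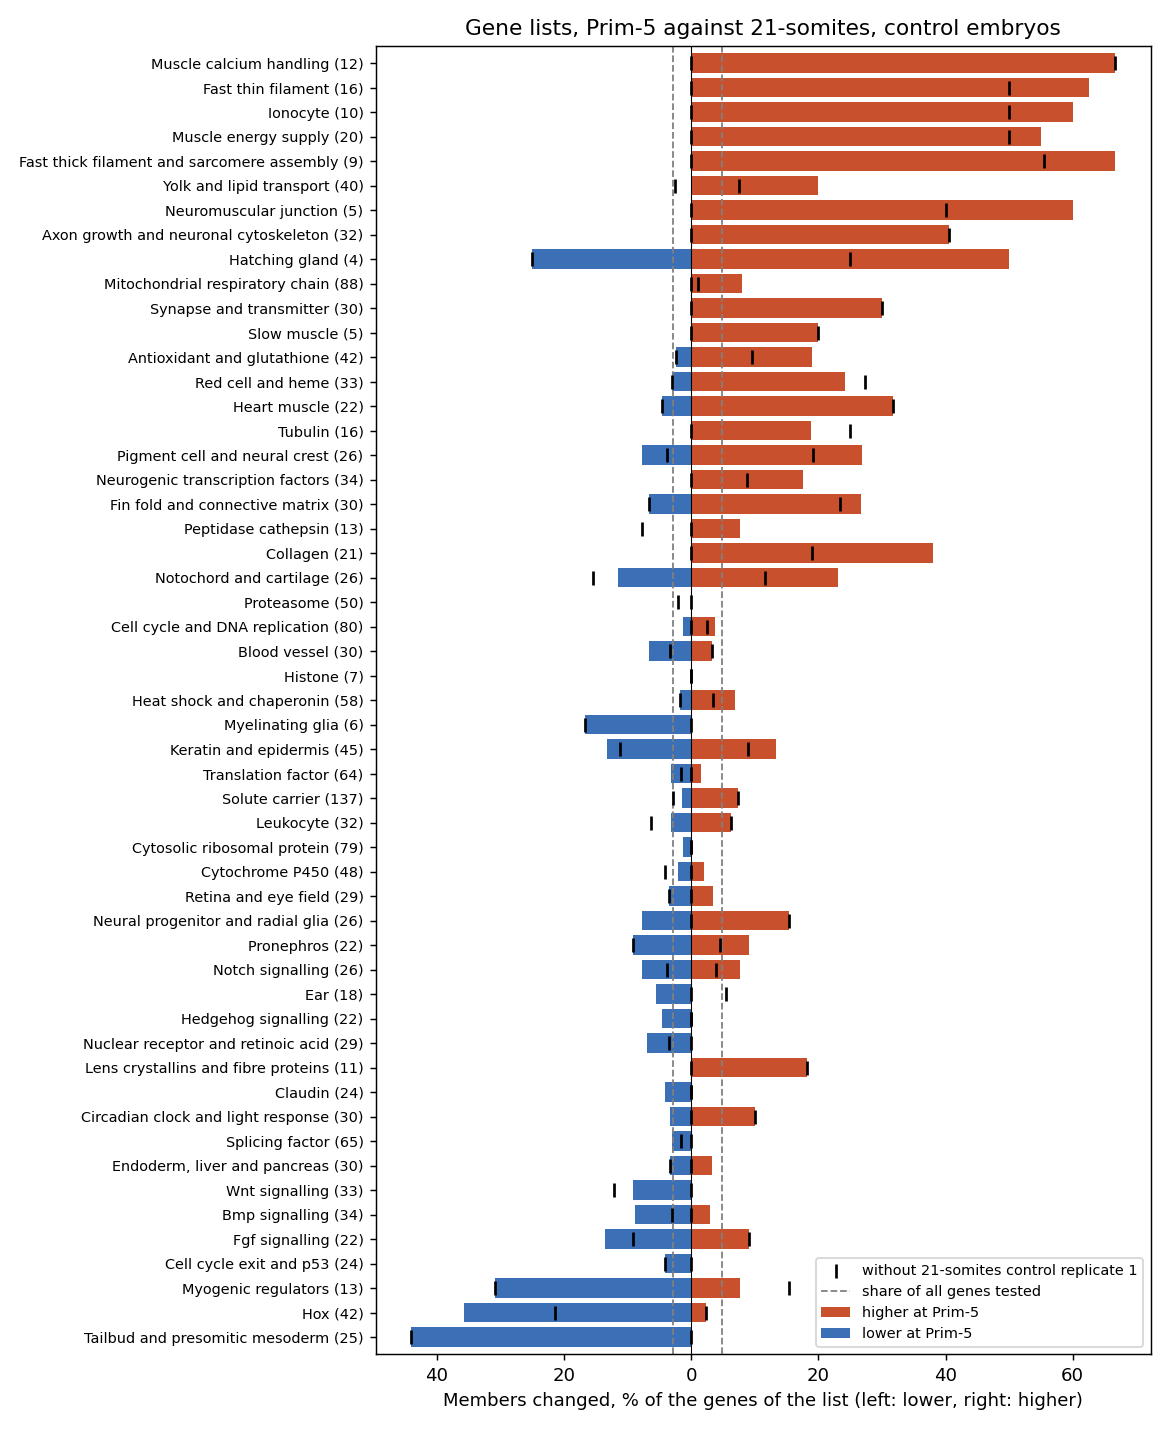
Share of the genes of each list that rose (orange, right) or fell (blue, left) between 21-somites and Prim-5 in controls, in percent, with the list size in parentheses and lists ordered by median log2 change. Dashed lines mark the shares over all genes, 4.89% higher and 2.92% lower, and black ticks the shares without the yolk-poor array. The lists of fast muscle, muscle calcium handling, muscle energy supply, the neuromuscular junction and ionocytes extend farthest right, at 55.0% to 66.7%, and the tailbud, Hox and myogenic regulator lists farthest left. Only 1 of the 5 neuromuscular junction genes was above the AsRed2 level at either stage.

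In controls the yolk and lipid transport list moved with 1 array. With all arrays 8 of its 40 genes rose and 0 fell, with a median of 0.48. Without the yolk-poor array 3 rose and 1 fell, with a median of 0.06. Without 21-somites control replicate 2 or 3, which leaves the yolk-poor array in a group of 2, 18 and 15 rose. In the MTBE mean, which uses no control array, 11 of the 40 rose and 3 fell, with a median of 0.09. Over all genes 12.6% rose and 16.1% fell in that mean. In controls the retinol carrier rbp4 had levels of 4.07, 5.93 and 6.24 at 21-somites and 7.30, 7.47 and 7.08 at Prim-5. Its rise of 1.87 ± 0.31 was 1.20 without the yolk-poor array (adjusted p = 0.000676). Vitronectin, vtnb, rose by 1.16 ± 0.21, or 0.85 without it, and the copper carrier cp by 1.09 ± 0.21, or 0.75. The fibrinogen chain fgg was at 2.89, 6.10 and 6.23 and then 7.06, 6.84 and 6.66, so that its 1.78 ± 0.43 became 0.69 and did not pass. The apolipoproteins apoea and apoc2 went from 1.34 and 1.07 to 0.73 and 0.51, and the other fibrinogen chains fga and fgb from 1.05 and 0.93 to 0.52 and 0.42, and these 4 did not pass without the array. fgb also did not pass without Prim-5 control replicate 1 (0.95), 2 (0.92) or 3 (0.92).

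In controls the counts of other lists outside the yolk rested partly on the same array. Of 88 respiratory chain genes 7 rose with all arrays, 1 without it, 11 without 21-somites control replicate 3 and 4 without each Prim-5 control, and the list mean on the 3 21-somites controls was 6.22, 6.37 and 6.44. Among these genes sdha, a succinate dehydrogenase subunit, rose by 0.75 ± 0.14 and kept its call. In the MTBE mean, which uses no control array, 41 of the 88 rose and 1 fell, against 12.6% and 16.1% of all genes there. The list median was 0.195 in that mean and 0.204 in controls. Of 42 antioxidant and glutathione genes 8 rose and 1 fell in controls, and 15 rose and 2 fell in the MTBE mean. Without the yolk-poor array 4 rose and 1 fell in controls. selenop, a selenium carrier secreted by liver and yolk syncytial layer, was at 4.80, 5.86 and 5.89 and then 6.63, 6.64 and 6.42, with 1.05 ± 0.19 becoming 0.69. The glycolytic gene gapdh, named after its values were seen, was at 5.40, 7.85 and 7.50 and then 8.36, 8.63 and 8.45, and its 1.56 ± 0.32 became 0.80. The part that the low yolk level has in these changes was not tested.

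**Figure D4:**
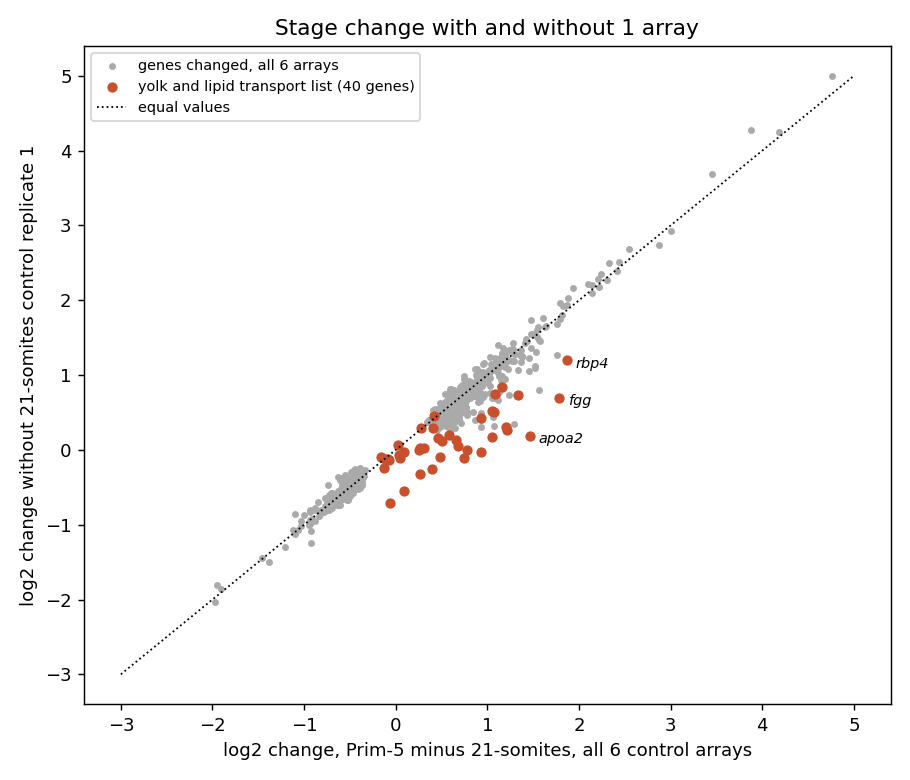
Log2 change from 21-somites to Prim-5 with all 6 control arrays (horizontal) against the change without 21-somites control replicate 1 (vertical), for all genes that changed (grey) and for the 40 yolk and lipid transport genes (orange), with a dotted line of equal values. Yolk genes such as fgg (1.78 and 0.69) and apoa2 (1.46 and 0.18) lie below the line, while the large rises and falls lie near it.

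Of 79 cytosolic ribosomal protein symbols 0 rose and 1 fell, and the 1 was rps19bp1, a ribosomal protein binding factor that the name pattern caught, at -0.33. It did not pass with any 1 of 5 arrays left out, the exception being 21-somites control replicate 2. Of 80 cell cycle and DNA replication genes 3 rose and 1 fell, with 0 rises without 21-somites control replicate 2 and 1 without Prim-5 control replicate 1 or 2. In further lists, of 50 proteasome genes 0 changed and of 65 splicing factors 2 fell. Of 58 heat shock and chaperonin genes 4 rose and 1 fell, and leaving out any array but 21-somites control replicate 3 left 1 or 2 rises. Of 24 cell cycle exit and p53 genes the 1 that fell was btg2, an antiproliferative gene, at -0.55 ± 0.12, and the list median was -0.17. In the MTBE mean, with 9 arrays a stage, 14 of the 24 fell and 2 rose, with a median of -0.28. Over all genes 16.1% fell and 12.6% rose in that mean. For the difference between the control and MTBE changes 0 probe sets passed.

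The Fgf, Wnt and Bmp lists had medians of -0.14 each, against -0.03 over all genes, and falls in 13.6%, 9.09% and 8.82% of their genes, against 2.92%. In the MTBE arrays 10 of 22, 11 of 33 and 12 of 34 of their genes fell, against 16.1% of all genes there. In the Fgf list 2 rose and 3 fell in controls, and fgf13a, an intracellular regulator of neuronal sodium channels, rose from 3.06, 2.84 and 3.16 to 4.54, 4.23 and 4.51, by 1.41 ± 0.12. In the Wnt list 0 of 33 rose and 3 fell, all of them genes of the tailbud list (sp5l, wnt5b and sp5a). In the list of nuclear receptors and retinoic acid 0 of 29 rose and 2 fell, with the receptor rarab at -0.75 ± 0.15. In the Bmp list 1 of 34 rose and 3 fell, with 1 fall without the yolk-poor array and 0 without Prim-5 control replicate 3. In the Notch list 2 of 26 rose and 2 fell, and in the Hedgehog list 0 of 22 rose and 1 fell. In the circadian list 3 of 30 rose and 1 fell, with 1 rise without Prim-5 control replicate 2. The light-induced clock gene per2 was at 3.60, 3.25 and 3.51 and then 4.63, 4.23 and 4.82, a rise of 1.10 ± 0.21, and a second, dimmer probe set gave 0.15 and did not pass. The labels give no light cycle.

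The same step in MTBE embryos gave a larger set of calls from more arrays, and the directions were the same where both passed. Over the mean of the 3 doses, with 9 arrays a stage, 3998 probe sets changed (25.8%), and by gene 12.6% rose and 16.1% fell. Within single doses, with 3 arrays a stage as in controls, 1122, 1753 and 1445 changed at the lowest, middle and highest dose. The counts of 3998 and 1091 therefore differ in the number of arrays as well as in exposure. Of the 1091 probe sets changed in controls, 1083 had the same sign in the MTBE mean and 966 also passed there in the same direction, while 0 passed in the opposite one. The 966 are 88.5% of the control calls and 24.2% of the MTBE calls. Of the 421 control calls lost without the yolk-poor array, 323 passed in the MTBE mean with the same sign.

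The leading genes had close values in both sets. tnni2a.4 changed by 4.76 in controls and by 5.00 ± 0.09 in the MTBE mean, where its lowest, median and highest levels were 2.34, 2.51 and 2.64 at 21-somites and 7.16, 7.55 and 7.88 at Prim-5. cdx4 changed by -1.91 and -2.00, krt99 by -1.98 and -1.88 and gch2 by 2.21 and 2.37. In the MTBE arrays 19 of 25 tailbud genes fell, 21 of 32 axon growth genes rose with 1 falling, 23 of 42 Hox genes fell with 3 rising and 35 of 65 splicing factors fell. The splicing list had a median of -0.10 in controls and -0.19 in the MTBE mean.

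For the difference between the control change and the mean MTBE change 0 of 15502 probe sets passed (0.0%). An unadjusted p under 0.05 was found for 742 of the 15502, which is no more than the share of 0.05 given without any difference. The lowest adjusted p was 0.132 and belonged to arhgef28a, a guanine nucleotide exchange factor, and stmn4, a neuronal stathmin. arhgef28a was at 3.46, 3.11 and 3.03 and then 1.88, 2.57 and 2.16 in controls, a change of -1.00 ± 0.18, against 0.03 ± 0.10 in the MTBE mean. stmn4 changed by -0.33 ± 0.13 in controls, which did not pass, and by 0.39 ± 0.07 in the MTBE mean.

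**Figure D5:**
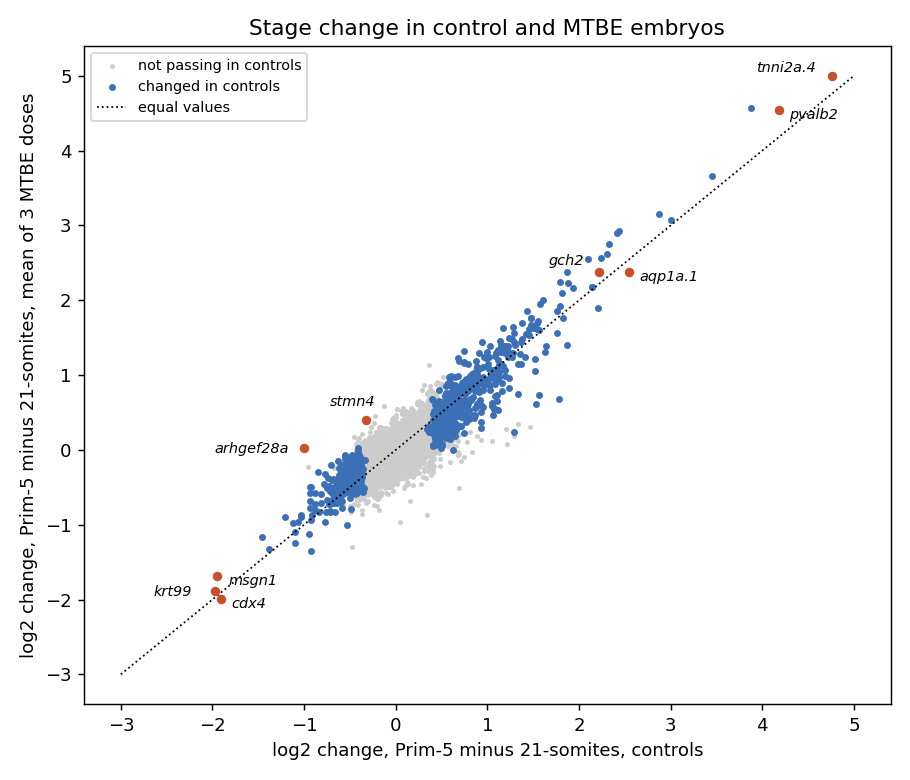
Log2 change from 21-somites to Prim-5 in controls (horizontal) against the mean change over the 3 MTBE doses (vertical), one point per gene, blue for genes that changed in controls, grey for the others and orange for labelled genes, with a dotted line of equal values. Labelled genes such as tnni2a.4 (4.76 and 5.00) and cdx4 (-1.91 and -2.00) lie near the line, and arhgef28a (-1.00 and 0.03) lies off it.

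Several of the 40 most changed named genes have no place in the lists. Rises included the Z-disc gene ldb3b, from 3.17, 3.02 and 2.94 to 5.27, 5.15 and 5.13, by 2.14 ± 0.14, and hsd17b8, a mitochondrial fatty acid synthesis gene, by 2.24 ± 0.16, although its second probe set gave 0.18 and did not pass. The uncharacterised si:ch211-1a19.3, wu:fc46h12 and zgc:66479 rose by 3.00 ± 0.16, 2.87 ± 0.16 and 2.20 ± 0.18. The largest of these, si:ch211-1a19.3, was at 1.41, 1.72 and 1.53 and then 4.80, 4.46 and 4.42. Falls included urate oxidase, uox, from 6.21, 6.60 and 6.55 to 5.33, 4.79 and 5.10, by -1.38 ± 0.19, and the elastic fibre gene efemp2b by -1.12 ± 0.15. Other falls were wdr90 at -0.93 ± 0.12, the collagen hydroxylase gene p4ha1b at -0.93 ± 0.21 and the steroid enzyme gene hsd3b2 at -0.93 ± 0.23. hsd3b2 did not pass without 21-somites control replicate 2 (-0.69) or Prim-5 control replicate 3 (-0.78), in a fit of only the 6 control arrays (adjusted p = 0.0725) or with 50 added (0.247). The GTPase gene drg2 changed by -0.93 ± 0.15 and the carbonic anhydrase related gene ca8 by -0.93 ± 0.19, and a second probe set of drg2 gave 0.15 and one of ca8 -0.09, neither passing.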

How the data were processed

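The authors deposited 1 table of log2 values for 15617 probe sets on 36 one-colour arrays. The log2 unit was read from the values. How the arrays were normalized or background was treated is not given in the sources used. No detection calls or scanner files were used. After 115 control probe sets were left out, 15502 were tested, of which 10795 had 1 gene symbol, 135 several and 4572 none. Symbols came from the platform annotation and were checked against RefSeq gene IDs (1 was updated). Arrays have no read depth, and 3 arrays a group limit the precision.

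In R 4.3.3, limma 3.58.1 fitted 1 linear model with the 12 groups of stage and dose to all 36 arrays, followed by eBayes, so the groups share 1 estimate of spread. The threshold for a change was a Benjamini-Hochberg adjusted p under 0.05. For each gene the probe set with the highest mean over all arrays was used. Named genes were the 20 largest rises and falls with non-overlapping arrays and the brighter stage above the AsRed2 probe set, up to 8 members per list by smallest p, marker genes as levels, and the 10 with the smallest p for controls against MTBE. The comparison, the 53 gene lists and the rules were chosen with earlier results of these data known. Alternatives were each array left out, only the arrays compared, a replicate block, quantile normalization, cyclic loess, a filter at the median level, 50 added to linear values, eBayes with trend and robust settings, array weights and a 2-fold threshold. On simulated data for the control comparison over 15502 probe sets, the test recovered 26 of 50 changes of 0.5, 47 of 50 of 1, 50 of 50 of 1.5 and 49 of 50 of 2 on the log2 scale, with 12 false calls. The simulated noise was normal, independent between probe sets and of the same spread on every array. It held no deviant array such as the yolk-poor one, so these counts are not error rates of the real comparison.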

Additional observations from a re-analysis of the deposited data

How the results depend on the processing

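Of 1091 probe sets changed in controls, 753 to 1007 changed with 1 of the 6 control arrays left out, 578 in a fit of only the 6 control arrays and 202 with a 2-fold threshold added. The count higher, 672, was 484 to 639 with 1 array left out, 413 in the fit of only the 6 control arrays and 382 with the filter at the median level. The count lower, 419, was 222 to 376 with 1 array left out, 165 in the fit of only the 6 control arrays and 275 with cyclic loess. The share of calls that were higher was 61.6% in the reported fit, 75.0% with cyclic loess, 48.8% with the median filter, which tests 7751 probe sets, and 71.5% with only the 6 control arrays. The fit of only the 6 control arrays estimates the spread from fewer samples. The cause of the other shifts was not tested. The 0 calls for controls against MTBE became 0 to 2 with 1 array left out and remained 0 under the other alternatives. Of the named genes that passed, 0 changed sign under the alternatives run. Of 5619 values of 411 named genes under the alternatives, 373 lost and 81 gained a call. Of 2225 counts and medians of lists, 434 moved beyond 1.5 times or the spread of arrays. The fit of only the 6 control arrays also ended the calls of tmod4, ache, mef2ca, rtn1b, sox19a, pcbd1, atp1a1a.4, cd63, lamc1, rps19bp1, apoea, apoc2 and the fibrinogen genes. Adding 50 to linear values compresses the changes of dim genes by construction. Replicate numbers are shared between the groups, but same-numbered arrays deviated together at r = 0.050, 0.055 and 0.00014, so the numbers were not taken as pairs, and a replicate block gave 1126 changed probe sets in controls, 698 higher and 428 lower, and 4031 in MTBE embryos. Closeness to background, with 91 changed genes under the AsRed2 level at both stages, limits what can be said of dim genes.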
